A study of Drosophila melanogaster with 10 samples.

Results

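The mitochondrial genome of Drosophila melanogaster was followed in the larval brain through the 38 gene rows whose names begin with mt:, of 17895 gene rows in all. The rows were taken by name alone and comprised 13 protein genes, 2 ribosomal RNA genes, 22 transfer RNA genes and 1 row for the origin region (mt:ori). Dissected brains of third-stage (instar 3) larvae gave total RNA for bulk RNA-seq, in 4 libraries labelled vostok, the name the series gives to the gene CG11504, and in 4 libraries labelled control, whose library names begin with yw. The labels state neither the vostok allele nor whether the groups share a genetic background, nor whether repeats of a group were different sets of larvae. A p-value below thus reflects only how these libraries scatter, which could be technical scatter. The series asks what the mutant changes in chromatin organization and transcription, and its 2 Micro-C libraries were not analysed here.

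Mitochondrial DNA is a small circular genome kept in many copies per cell. Its protein genes encode core subunits of the respiratory chain: the ND genes belong to complex I (NADH dehydrogenase), mt:Cyt-b to complex III, the Co genes to complex IV (cytochrome c oxidase) and the ATPase genes to complex V (ATP synthase). Long transcripts of both strands are cut at transfer RNAs into single RNAs, which are polyadenylated, and all other subunits, together with the enzymes that transcribe, cut and translate these RNAs, come from nuclear genes. In flies mt:ND1, mt:ND4, mt:ND4L, mt:ND5 and both ribosomal RNAs are read from the opposite strand to the other protein genes.

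CG11504 RNA was higher, not lower, in the libraries labelled vostok: it stood at 57.2, 67.2, 56.1 and 59.7 CPM in control replicates 1 to 4 and at 71.4, 72.7, 74.7 and 75.7 CPM in vostok replicates 1 to 4 (log2 fold change 0.29 ± 0.06, edgeR adjusted p = 0.0143; 0.0531 without vostok replicate 3). The groups did not overlap. As the allele is not described, this level does not check the labels, on which all directions below depend. The pigment gene y, whose mutant allele the letters yw usually stand for, was between 0.663 and 0.968 CPM in the control libraries and between 104 and 144 CPM in those labelled vostok. The groups thus differed in y RNA as well as in label. A difference of strain background, nuclear or mitochondrial, cannot be told apart from vostok in any comparison below. CPM are estimated counts divided by the library size, which is scaled by TMM factors. Library totals ran from 57613848 to 81796126 estimated counts, so that 3 counts in a library equal 0.0371 to 0.0519 CPM, a limit for counting error only. On the first principal component of all genes, control replicate 2 was the control library nearest to the other group (-20.5, against -46.4 to -66.0 for the other control libraries). Nuclear ribosomal RNA took 0.802% to 2.86% of gene counts in 7 libraries and 8.16% in vostok replicate 3.

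RNA of the mitochondrial protein genes was lower in the libraries labelled vostok. Summed over the 13 genes it came to 9438, 6858, 8851 and 7487 CPM in control replicates 1 to 4 and to 5842, 5805, 7570 and 5047 CPM in vostok replicates 1 to 4. The groups overlapped, because vostok replicate 3 exceeded control replicates 2 and 4. The means were 8158 ± 1192 and 6066 ± 1068 CPM (SD, n = 4), a ratio of 0.744. In bulk RNA, fewer cells rich in mitochondria and less mitochondrial RNA per cell cannot be told apart. The 13 genes took 0.679% to 0.951% of gene counts in the control libraries and 0.510% to 0.723% in those labelled vostok.

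Of 12 protein genes with enough counts for the test, 4 fell at an adjusted p below 0.05 (edgeR's quasi-likelihood test, adjusted over all 10749 genes tested) and none rose, while 7 had an unadjusted p below 0.05. The genes that fell were mt:ND1, mt:ND4, mt:CoI and mt:CoII. Over all genes tested, 16.2% fell and 12.1% rose. DESeq2 called 6 of the 12 lower, adding mt:CoIII and mt:ND3, where it called 21.6% of all genes lower. The log2 fold change was negative for 11 of the 12 genes, with a median of -0.42 beside a median of -0.01 over all genes tested. With libraries scaled to the summed mitochondrial protein counts instead, 5 of the 12 were negative, and the median of all genes moved to 0.42. That scaling sets the pool as a whole to no change by construction, so it cannot show whether the pool fell.

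**Figure D1:**
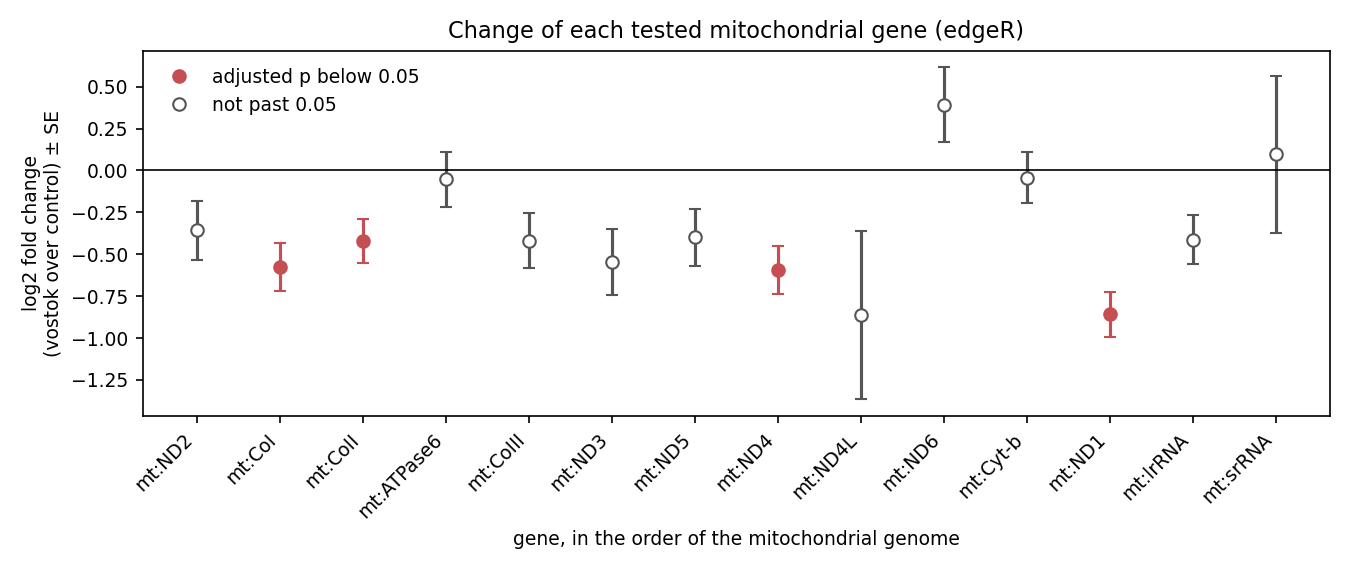
Log2 fold change (libraries labelled vostok over control, ± SE, vertical axis) of the 12 tested protein genes and 2 ribosomal RNA genes, in the order of the mitochondrial genome; filled points have an edgeR adjusted p below 0.05. The 4 filled points, mt:CoI, mt:CoII, mt:ND4 and mt:ND1, lie between -0.86 and -0.42 with TMM scaling. mt:CoII turns to 0.01 when libraries are scaled to the summed mitochondrial protein counts, which sets the pool as a whole to no change by construction.

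The level of a gene per length differed widely along the genome. In control brains mt:CoIII and mt:CoI stood highest among the protein genes, at 2102 ± 337 and 2081 ± 294 CPM per kb of RefSeq gene length, which do not differ beyond their spread. Next came mt:CoII at 1370 ± 208, mt:Cyt-b at 805 ± 102 and mt:ATPase6 at 590 ± 80.6 CPM per kb. The next 4 genes were mt:ND1, mt:ND4, mt:ND5 and mt:ND3, at 266 ± 38.1, 252 ± 37.2, 220 ± 42.5 and 209 ± 43.5 CPM per kb. These SDs are across libraries that all 4 genes share, and the order of the 4 was not tested. All Co genes thus stood above all ND genes per length. Last came mt:ND2 (9.56 CPM per kb), mt:ND6 (5.81), mt:ND4L (4.51) and mt:ATPase8 (0.624), although each is encoded beside or between more abundant genes. Estimated counts of overlapping neighbours cannot be separated with certainty: mt:ATPase8 and mt:ATPase6 share 7 bases, mt:ATPase6 and mt:CoIII 1 base, and mt:ND4 and mt:ND4L 1 base. mt:ATPase8 and mt:ND4L are also short, at 162 and 291 bases, and levels were divided by the full gene length. Whether the low values of these short genes reflect their RNA level was not tested. How the counting treated strand was not given in the sources used here.

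**Figure D2:**
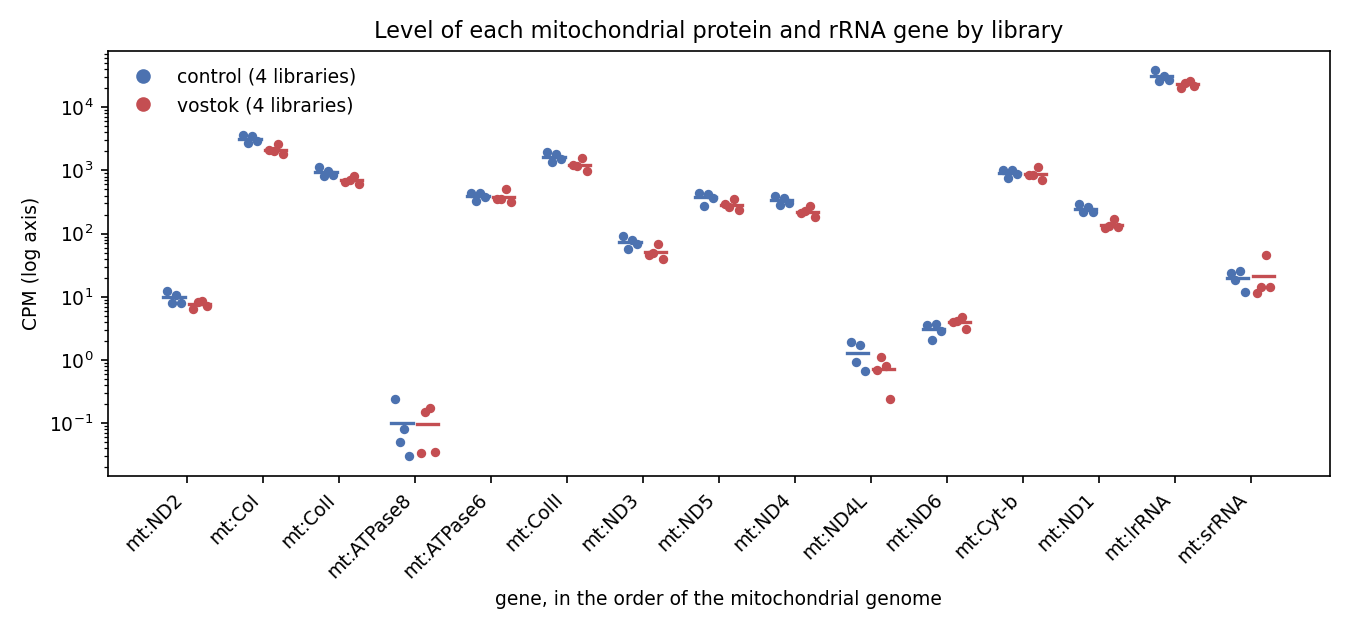
Level of each protein and ribosomal RNA gene (CPM, log axis) in the order of the mitochondrial genome; points are the 4 control and 4 vostok libraries and bars their means. mt:lrRNA lies at or above 20036 CPM in every library and mt:ATPase8 at or below 0.245 CPM, and the groups separate only for mt:CoI, mt:ND4 and mt:ND1.

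The catalytic core of cytochrome c oxidase is formed by the products of mt:CoI, mt:CoII and mt:CoIII. mt:CoI (FBgn0013674; mitochondrial genome in the RefSeq annotation of Release 6 plus ISO1 MT, 1474 to 3009), which encodes the subunit that reduces oxygen, stood at 3689, 2728, 3457 and 2910 CPM in control replicates 1 to 4 and at 2084, 2022, 2643 and 1827 CPM in vostok replicates 1 to 4. Every library labelled vostok lay below every control library, with vostok replicate 3 just under control replicate 2. mt:CoI fell to 0.671 of the control level (log2 fold change -0.58 ± 0.14, edgeR adjusted p = 0.0218). The call was lost without control replicate 3 or without vostok replicate 1, 2 or 4, with an adjusted p of up to 0.0678 (edgeR).

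mt:CoII (FBgn0013675; 3083 to 3767), whose product takes electrons from cytochrome c, was at 1118, 811, 988 and 838 CPM in the control libraries and at 663, 696, 828 and 614 CPM in those labelled vostok. The groups overlapped by vostok replicate 3 against control replicate 2. mt:CoII passed the test narrowly (log2 fold change -0.42 ± 0.13, edgeR adjusted p = 0.0447), and of 8 fits that left out 1 library the call held in 2, without control replicate 2 and without vostok replicate 3 (adjusted p of up to 0.112, edgeR, without vostok replicate 4). mt:CoIII (FBgn0013676; 4736 to 5524), at 1938, 1371, 1822 and 1502 against 1210, 1184, 1581 and 985 CPM, had the same estimate but did not pass (-0.42 ± 0.17, edgeR adjusted p = 0.0886). Its vostok replicate 3 exceeded 2 control libraries.

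Among the 7 complex I genes, mt:ND1 showed the clearest separation of the groups. mt:ND1 (FBgn0013679; 11721 to 12659), which encodes a membrane subunit at the quinone site, was at 296, 219, 260 and 224 CPM in control replicates 1 to 4 and at 125, 130, 170 and 126 CPM in vostok replicates 1 to 4. The highest library labelled vostok lay well below the lowest control library. mt:ND1 fell to 0.552 of the control level (log2 fold change -0.86 ± 0.14, edgeR adjusted p = 0.00383), and it was called in all 8 fits that left out 1 library (adjusted p of at most 0.0188, edgeR).

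mt:ND4 (FBgn0262952; 8207 to 9545), which encodes a proton-pumping subunit, was at 396, 288, 360 and 306 CPM in the control libraries and at 208, 228, 271 and 185 CPM in those labelled vostok. The groups did not overlap, although vostok replicate 3 came near control replicate 2. mt:ND4 fell to 0.662 of the control level (-0.60 ± 0.14, edgeR adjusted p = 0.0207). Like mt:CoI it lost the call without control replicate 3 or vostok replicate 1, 2 or 4, with an adjusted p of up to 0.0588 (edgeR).

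mt:ND5 (FBgn0013684; 6409 to 8125), another pumping subunit, was at 436, 277, 425 and 373 CPM against 293, 263, 349 and 240 CPM, and its groups overlapped (-0.40 ± 0.17, edgeR adjusted p = 0.105). mt:ND3 (FBgn0013681; 5608 to 5961) was at 92.8, 56.5, 77.9 and 68.3 CPM against 45.4, 49.8, 67.5 and 39.9 CPM (-0.54 ± 0.20, edgeR adjusted p = 0.0712). In both genes control replicate 2 was the lowest control library and lay within the vostok range, and without it both passed (adjusted p = 0.0148 and 0.0223, edgeR). mt:ND2 (FBgn0013680; 240 to 1263) was at 12.5, 8.04, 10.7 and 7.94 CPM against 6.46, 8.19, 8.70 and 7.18 CPM (-0.36 ± 0.17, edgeR adjusted p = 0.142).

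The remaining complex I genes were near the low end. mt:ND4L (FBgn0013683; 9545 to 9835) ranged from 0.659 to 1.90 CPM in the control libraries and from 0.242 to 1.11 CPM in those labelled vostok, with overlapping groups and a wide error (-0.86 ± 0.50, edgeR adjusted p = 0.205). mt:ND6 (FBgn0013685; 9971 to 10495) was the one protein gene with a positive estimate: it was at 3.57, 2.05, 3.70 and 2.88 CPM in the control libraries and at 4.05, 4.11, 4.75 and 3.08 CPM in those labelled vostok. All but vostok replicate 4 stood above every control library, and the gene did not pass (0.39 ± 0.22, edgeR adjusted p = 0.199).

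mt:Cyt-b (FBgn0013678; 10499 to 11635), the heme-carrying core of complex III, was at 1009, 770, 1010 and 870 CPM in control replicates 1 to 4 and at 850, 861, 1136 and 705 CPM in vostok replicates 1 to 4. The groups covered one another, and the estimate was near 0 (-0.04 ± 0.15, edgeR adjusted p = 0.839). mt:ATPase6 (FBgn0013672; 4062 to 4736), which encodes the membrane subunit of the proton path of ATP synthase, was at 445, 327, 435 and 385 CPM against 353, 358, 510 and 315 CPM. It likewise overlapped throughout (-0.05 ± 0.17, edgeR adjusted p = 0.815). mt:ATPase8 (FBgn0013673; 3907 to 4068) held 2 to 17 estimated counts in any library, with 17, 4, 5 and 2 in control and 2, 12, 12 and 2 in vostok replicates, and was too low to test. The row mt:ori held 0 to 4 counts.

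The same few libraries set the order within a group for nearly every gene. Among the 12 tested protein genes, control replicate 1 was the highest control library for 10 and control replicate 2 the lowest for 10. Vostok replicate 3 was the highest of its group for 11 genes and vostok replicate 4 the lowest for 10. The groups separated for 3 of the 13 protein genes, mt:CoI, mt:ND1 and mt:ND4, each with the vostok group lower; over all genes tested, groups separated with vostok lower for 16.8% and with vostok higher for 16.4%. Leaving out 1 library at a time gave 7 called protein genes without control replicate 2, 6 without vostok replicate 3, 3 without control replicate 1 or 4, and 1, mt:ND1, without control replicate 3 or vostok replicate 1, 2 or 4. With all libraries, 4 protein genes and 3040 of all 10749 genes tested were called in either direction. Over all genes, the share called was 48.5% without control replicate 2. It was 19.8%, 15.9% and 22.5% without control replicates 1, 3 and 4, and 17.7%, 14%, 14.1% and 16.7% without vostok replicates 1 to 4. Without vostok replicate 3 the 2 counts moved apart: more protein genes were called, but only 1538 of 10874 genes over all.

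**Figure D3:**
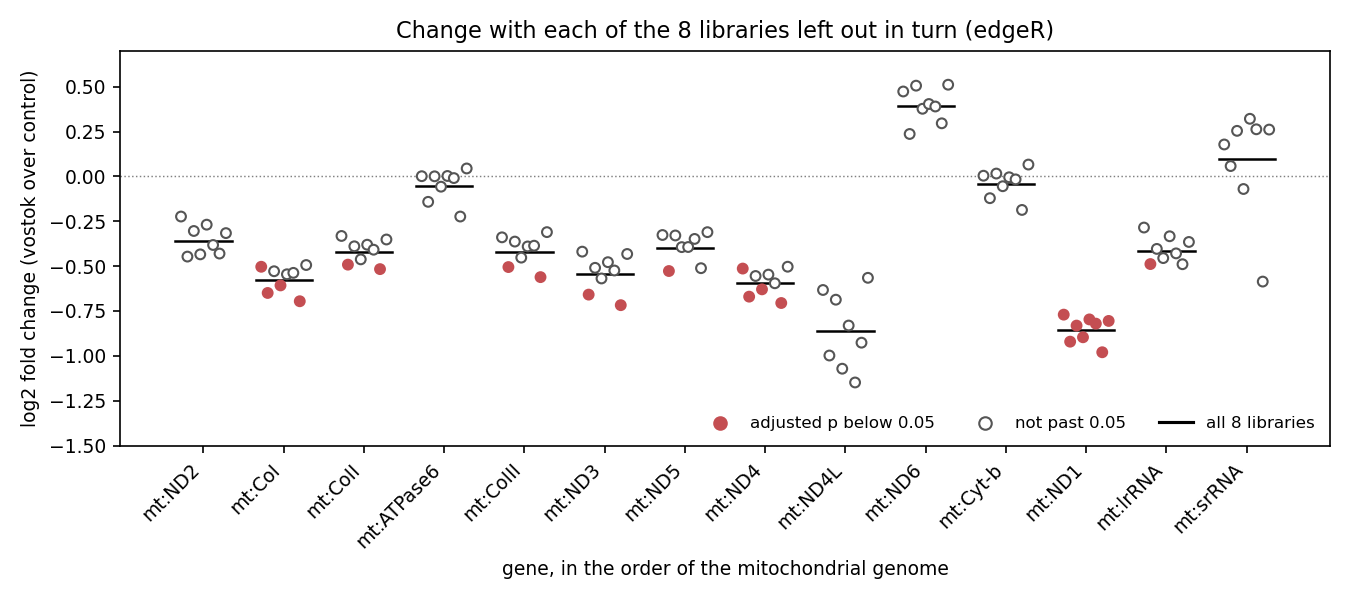
Log2 fold change (libraries labelled vostok over control, vertical axis) of each tested mitochondrial gene when each of the 8 libraries is left out in turn (points, in the order of control 1 to 4 and vostok 1 to 4), with the fit of all 8 libraries as a bar; filled points have an edgeR adjusted p below 0.05. mt:ND1 stays between -0.98 and -0.77 and is filled in all 8 fits, whereas mt:srRNA moves between -0.59 and 0.32 with none filled.

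The large ribosomal RNA, mt:lrRNA (FBgn0013686; 12735 to 14058), took more counts than any other gene row in 7 of 8 libraries and ranked 2 in vostok replicate 3. It was at 38814, 26137, 30801 and 27256 CPM in control replicates 1 to 4 and at 20036, 24399, 26514 and 21428 CPM in vostok replicates 1 to 4. Only vostok replicate 3 reached into the control range, just above control replicate 2. The level was 0.751 of control and did not pass edgeR's test (log2 fold change -0.41 ± 0.15, adjusted p = 0.0653; unadjusted p = 0.0218), passed without control replicate 2 (adjusted p = 0.0259), and passed in DESeq2 (adjusted p = 0.0266). That ratio lay beside 0.744 for the summed protein genes, and scaled to the summed mitochondrial protein counts the log2 fold change of mt:lrRNA was 0.03.

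The small ribosomal RNA, mt:srRNA (FBgn0013688; 14131 to 14916), was far less represented: it stood at 25.6 ± 7.80 CPM per kb in control brains, beside 23227 ± 4328 CPM per kb for mt:lrRNA. By library it was at 23.6, 18.7, 26.0 and 12.1 CPM in control and at 11.5, 14.4, 45.7 and 14.4 CPM in vostok replicates. Vostok replicate 3 alone lay above the control range, and that library also held the most nuclear ribosomal RNA, whose part in the value was not tested. mt:srRNA did not pass the test (0.10 ± 0.47, edgeR adjusted p = 0.882), and the estimate turned to -0.59 without vostok replicate 3. The counts of mt:lrRNA were 580 to 2246 times those of mt:srRNA across libraries.

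All 22 mitochondrial transfer RNA genes, 61 to 73 bases long, held 0 counts in all 8 libraries. At this depth a count of 0 allows up to 0.0371 to 0.0519 CPM per gene, so none could be tested and no level could be compared. Nuclear transfer RNA genes were little better sampled: of 295 rows 254 held 0 counts in every library, 41 held a count, and 0 had enough counts for the test. The absence of counts therefore covered short transfer RNAs of both genomes in these libraries.

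The makeup of the protein gene pool was described by shares. As a share of the summed counts of the 13 genes, mt:CoI took 39.1%, 39.8%, 39.1% and 38.9% in control replicates 1 to 4 and 35.7%, 34.8%, 34.9% and 36.2% in vostok replicates 1 to 4. mt:ND1 took 2.93% to 3.20% in control and 2.13% to 2.50% in libraries labelled vostok, and mt:ND4 took 4.13% ± 0.0689 and 3.69% ± 0.170 (SD, n = 4). These 3 shares were lower in every library labelled vostok than in any control library. In the other direction, mt:Cyt-b took 11.2% ± 0.399 of the pool in control and 14.6% ± 0.454 in libraries labelled vostok, mt:ATPase6 4.72% to 5.14% and 6.04% to 6.73%, and mt:ND6 0.0298% to 0.0418% and 0.0610% to 0.0708%. The 6 other tested genes overlapped. When the levels of all genes tested were divided by the same sum, the groups separated with vostok lower for 2.71% of genes and with vostok higher for 19.3%. Shares of a pool cannot all move one way, so a lower share of mt:CoI, the largest member, raises the summed share of the rest. Single genes did not all follow, as mt:ND1 and mt:ND4 were lower in share too. How far the lower share of mt:CoI accounts for the higher shares of mt:Cyt-b, mt:ATPase6 and mt:ND6 was not tested.

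Fitting edgeR with libraries scaled to the summed mitochondrial protein counts, mt:ND6 passed and was higher (log2 fold change 0.83 ± 0.25, adjusted p = 0.0277). That fit called 23.8% of all genes higher and 3.13% lower. No other member passed: mt:Cyt-b was at 0.38 (edgeR adjusted p = 0.0857), mt:ATPase6 at 0.36 (0.108), mt:ND1 at -0.43 (0.0755), mt:ND4 at -0.17 (0.441) and mt:CoI at -0.15 (0.42). Although their shares did not overlap between the groups, those 5 genes did not pass in this fit. Its errors (± 0.15 for mt:CoI) draw on the spread of all genes under this scaling. A missing call therefore does not show that the shares were alike.

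**Figure D4:**
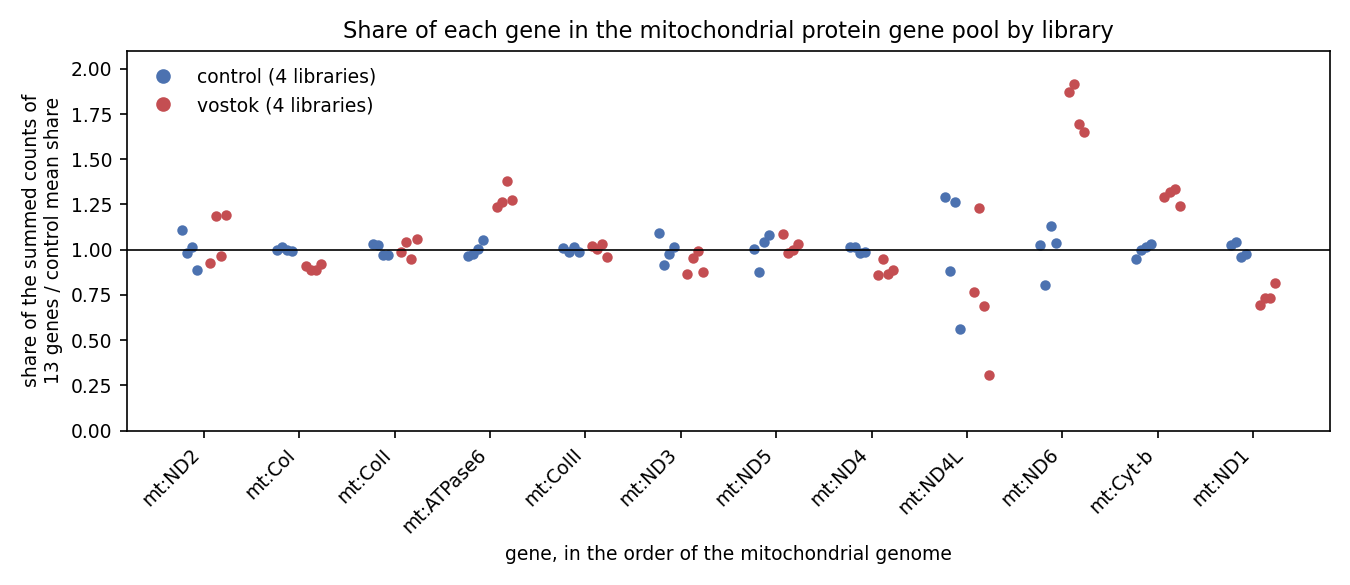
Share of each protein gene in the summed counts of the 13 mitochondrial protein genes, divided by the control mean share (vertical axis), for 12 genes in genome order; points are the 4 control and 4 vostok libraries, and mt:ATPase8, at 2 to 17 counts, is not drawn. Groups separate for 6 genes: mt:CoI, mt:ND4 and mt:ND1 are lower in the libraries labelled vostok, mt:ATPase6, mt:ND6 and mt:Cyt-b higher.

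Ratios of neighbouring genes do not depend on library scaling. Of 13 ratios between successive protein and ribosomal RNA genes, mt:ATPase8 left out, 6 did not overlap between the groups, in either direction. Among 10265 ratios of successive tested nuclear genes, 32% did not overlap. The count ratio of mt:Cyt-b to mt:ND1, neighbours on opposite strands, was 3.41, 3.52, 3.89 and 3.89 in control replicates 1 to 4 and 6.82, 6.63, 6.68 and 5.60 in vostok replicates 1 to 4. The lowest vostok ratio lay well above the highest control ratio.

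The ratio of mt:ATPase6 to mt:CoIII, adjacent on the same strand, was 0.230, 0.238, 0.239 and 0.256 in control and 0.291, 0.302, 0.322 and 0.319 in vostok replicates. Here too the groups were apart, although neither gene passed the test by itself. mt:CoII over mt:ATPase6 moved the other way, from 2.36 ± 0.163 to 1.85 ± 0.154 (SD, n = 4), and mt:CoI over mt:CoII from 3.41 ± 0.0923 to 3.05 ± 0.135. mt:ND6 over mt:Cyt-b, which lie 3 bases apart, was 0.00329 ± 0.000448 in control and 0.00452 ± 0.000297 in the libraries labelled vostok, and mt:ND1 over mt:lrRNA was 0.00816 ± 0.000371 and 0.00596 ± 0.000477. The ratio of mt:ND5 to mt:ND4, both on the opposite strand, overlapped between the groups (0.962 to 1.22 and 1.15 to 1.41). Since mt:ATPase6 shares its last base with mt:CoIII, the counts at that boundary are uncertain.

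Nuclear genes whose products build or serve the same complexes were called lower more often than higher. Of 204 tested genes in 10 lists, 66 (32.4%) fell and 2 rose by edgeR's test, beside 16.2% and 12.1% of all genes; the lists were drawn up with earlier results of these data known. Scaled to the summed mitochondrial protein counts, 7 of the 204 rose and 0 fell, where 23.8% of all genes rose and 3.13% fell. With all libraries 68 of the 204 were called in either direction. Without control replicate 3, 26 of the 204 were called, 25 of them lower, beside 822 of 10970 genes lower over all genes. Without vostok replicates 1 to 4, 23, 22, 20 and 24 of the 204 were called, of which 21, 21, 19 and 23 were lower. In those fits 994 of 10909, 736 of 10891, 759 of 10874 and 889 of 10920 genes were lower over all genes. Without control replicate 2, 99 were called, 96 of them lower. In that fit 48.5% of all genes were called in either direction, and 2810 of 10987 genes were called lower.

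For complex I, 10 of 34 nuclear subunit genes (29.4%) fell and 0 rose, with a median log2 fold change of -0.22, beside 16.2% of all genes that fell. The count ranged from 5 to 19 with 1 library left out. It was 19 without control replicate 2, where 48.5% of all genes were called in either direction. ND-51, the flavin-carrying subunit that takes electrons from NADH, went from 130 ± 9.59 to 102 ± 2.1 CPM (-0.35 ± 0.06, edgeR adjusted p = 0.00478). The lowest estimate of the list, -1.01, belonged to ND-B8, named after its value was seen: it was at 0.235 ± 0.0941 and 0.114 ± 0.0631 CPM and did not pass (edgeR adjusted p = 0.124). Of the 4 complex II genes, all nuclear, 2 fell (0 to 3 called with 1 library left out). SdhD, a membrane anchor, was at 57.6 ± 5.34 and 47.1 ± 1.23 CPM (-0.29 ± 0.07, edgeR adjusted p = 0.02), and lost the call without vostok replicate 1, 3 or 4.

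In complex III, 4 of 9 nuclear genes fell and 0 rose (median -0.25), while the mitochondrial member mt:Cyt-b stood at -0.04. RFeSP, the Rieske iron-sulfur protein, was at 119 ± 10.4 and 101 ± 3.23 CPM (-0.25 ± 0.07, edgeR adjusted p = 0.0315). In complex IV, 5 of 9 fell and 0 rose (median -0.26), among them COX4 at 194 ± 20.8 and 157 ± 4.25 CPM (-0.30 ± 0.08, edgeR adjusted p = 0.0272). The calls of complexes III and IV were lost, down to 0, without control replicate 3 or any 1 of the vostok libraries. In complex V, 9 of 13 fell and 0 rose (median -0.26), among them ATPsynCF6 at 113 ± 11.9 and 89.1 ± 2.26 CPM (-0.34 ± 0.07, edgeR adjusted p = 0.0142), while mt:ATPase6 stood at -0.05. That count ranged from 1 to 10 with 1 library left out. All these medians turned positive, at 0.19 to 0.26, when libraries were scaled to the summed mitochondrial protein counts, a scaling that shifts all genes alike. The median of all genes then stood at 0.42. Relative to the median of all genes, those of complexes I to V lay at -0.25 to -0.17 with TMM scaling. With the other scaling they lay at -0.24 to -0.16.

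**Figure D5:**
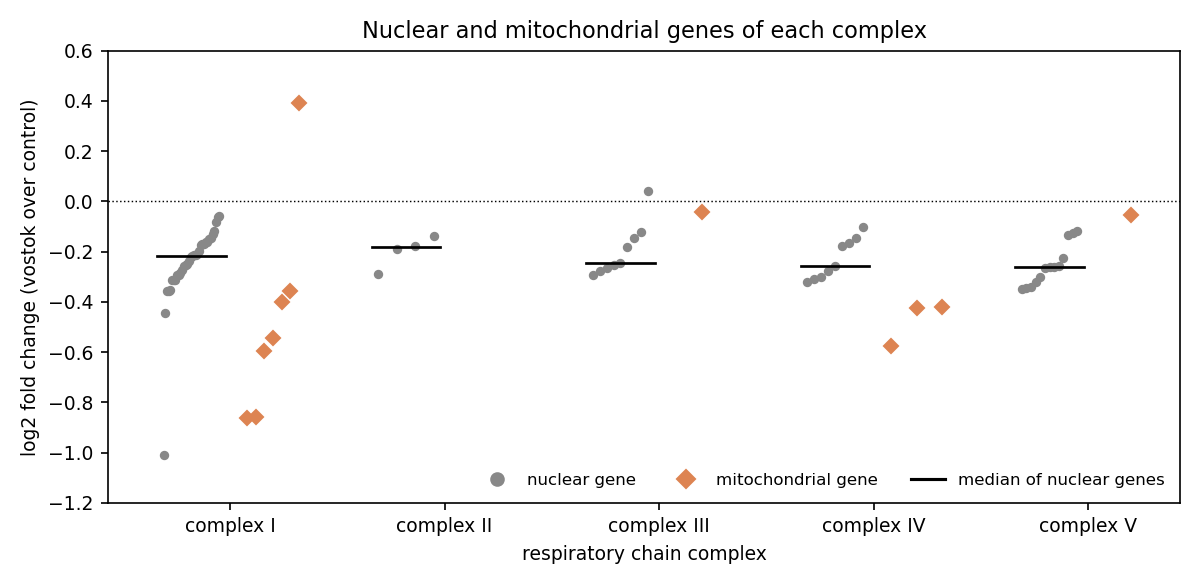
Log2 fold change (libraries labelled vostok over control, edgeR with TMM scaling, vertical axis) of nuclear genes (grey points, median as a bar) and tested mitochondrial genes (diamonds) of complexes I to V. Mitochondrial genes of complex IV lie between -0.58 and -0.42, below the nuclear median of -0.26. Those of complex I run from -0.86 to 0.39 (mt:ND6), on both sides of the nuclear median of -0.22, and the lowest point there is nuclear (ND-B8, -1.01). Mitochondrial genes of complexes III and V stand near 0. The nuclear medians turn positive under scaling to the summed mitochondrial protein counts, but stay below the median of all genes, then at 0.42.

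Of 18 nuclear genes for mitochondrial transcription and RNA processing, 5 (27.8%) fell and 0 rose (median -0.13), beside 16.2% of all genes that fell. With 1 library left out 3 to 7 were called, the 7 without control replicate 2, where 48.5% of all genes were called in either direction. scu, a subunit of the RNase P that cuts transcripts before transfer RNAs, was at 118 ± 26.9 CPM in control and 66.5 ± 5.25 CPM in the libraries labelled vostok (-0.83 ± 0.16, edgeR adjusted p = 0.00873). RNaseZ, which cuts behind transfer RNAs in nucleus and mitochondria, was at 27.3 ± 3.28 and 20.5 ± 0.542 CPM (-0.41 ± 0.09, edgeR adjusted p = 0.0132). PNPase, a subunit of the RNA degradation complex, was at 31.4 ± 2.43 and 24.0 ± 0.705 CPM (-0.39 ± 0.06, edgeR adjusted p = 0.00449). These 3 genes stayed called in all 8 fits that left out 1 library.

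Of 6 genes for mitochondrial DNA replication and upkeep, 1 fell, the protease gene Lon (64.1 ± 2.63 and 55.0 ± 2.29 CPM, -0.22 ± 0.05, edgeR adjusted p = 0.0178), and 0 rose. That call was lost without vostok replicate 2 (edgeR adjusted p = 0.0592), and 3 genes of the list were called without control replicate 2. Among 26 translation factors and transfer RNA synthetases, 4 fell and 1 rose (median -0.12; 2 to 7 called with 1 library left out). The share that fell was 15.4% here and 16.7% in the replication list, both near the 16.2% over all genes. TyrRS-m, which charges the tyrosine transfer RNA, was at 13.6 ± 1.05 and 10.3 ± 0.578 CPM (-0.39 ± 0.08, edgeR adjusted p = 0.0101). SerRS-m, for serine, rose from 25.3 ± 1.10 to 30.1 ± 1.28 CPM (0.25 ± 0.05, edgeR adjusted p = 0.0148). Of 73 mitochondrial ribosomal protein genes, 19 (26%) fell and 0 rose (median -0.18), beside 16.2% of all genes that fell. With 1 library left out, 4 to 32 were called. The list was led by mRpL18 at 14.4 ± 1.52 and 9.96 ± 0.534 CPM (-0.53 ± 0.09, edgeR adjusted p = 0.00503). Of 12 other abundant mitochondrial proteins, 7 fell and 1 rose (3 to 8 called with 1 library left out), and Idh3a of the citric acid cycle was at 231 ± 9.92 and 188 ± 4.03 CPM (-0.29 ± 0.05, edgeR adjusted p = 0.00561).

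Marker genes of several cell types differed between libraries as well. All 10 hemocyte markers had negative estimates (median -2.28; 1 called, 7 at an unadjusted p below 0.05 in edgeR), and their summed level ran from 357 to 6111 CPM in control and from 244 to 931 CPM in libraries labelled vostok, lowest among controls in replicate 2 and highest in replicate 3. All 6 neuron markers had positive estimates (median 0.39, 0 called). They summed to 1199 to 2550 CPM in control and 2233 to 2647 CPM in libraries labelled vostok. Among controls, replicates 1 and 3, the libraries highest in mitochondrial protein RNA, were lowest in neuron markers. Neuroblast markers summed to 382 to 470 and 462 to 542 CPM (median estimate 0.15, 1 of 4 called, mira, higher). Glial markers summed to 662 to 968 and 741 to 781 CPM (median 0.05, 1 of 6 called, moody, lower). Muscle markers summed to 144 to 370 and 109 to 210 CPM (median -0.39, 0 of 8 called). Fat body markers summed to 28.5 to 199 and 57.1 to 292 CPM (median 0.50, 0 of 5 called). Every marker in the 6 lists had enough counts for the test. Without control replicates 1 and 3, 1 protein gene, mt:ND1, was called. Calls over all genes were also fewer in that fit, 1593 of 11232 beside 3040 of 10749 with all libraries. The part of cell makeup in the mitochondrial result was not tested.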

How the data were processed

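Total RNA of dissected larval brains was made into directional libraries, per the labels' protocols. The deposited values are estimated counts per gene, fractional and not scaled between libraries. The name of the deposited table gives salmon. BWA and dm6 are named in the submitters' processing notes, without an assay. An annotation release or a choice of strand was not given in the sources used here. Each of the 8 count columns was mapped to a library by the labels.

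Element and other non-gene rows, which left 99.3% to 99.5% of each library's counts to gene rows, were set aside. Counts were rounded, filtered with filterByExpr to 10749 genes, scaled by TMM and tested with edgeR 4.0.16 (quasi-likelihood, robust, genotype only) in R 4.3.3, with Benjamini-Hochberg adjustment at 0.05. The procedure was first tested on simulated data. Gene lengths and positions came from RefSeq, found for 37 of 38 members. CPM use the TMM-scaled sizes of tested genes. Alternatives were other scalings, among them libraries scaled to the summed mitochondrial protein counts, other count filters, DESeq2 1.42.0, limma 3.58.1 voom, a replicate block and leaving out libraries.

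Members, gene lists and comparisons were chosen with earlier results of these data known. Every mt: gene was to be named, and up to 3 called genes of smallest p per nuclear list. Of 207 listed genes 204 were tested; Ptcd1, Twinkle and mEFG2 were not matched. No sequence is shown. Figures were drawn with matplotlib 3.10.9.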

Additional observations from a re-analysis of the deposited data

Results flagged for a closer look

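In 34 groups of 4 libraries, the highest and lowest library were compared with the rest of the group, and 3 values stood further off than Dixon's 95% critical value for 4 samples allows. Chance flags about 1 in 20 groups. All 3 were in vostok replicate 3: mt:ND1 at 170 CPM (ratio of gap to range 0.883), mt:srRNA at 45.7 CPM (0.914) and nuclear ribosomal RNA at 8.16% of gene counts (0.916).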

How the results depend on the processing

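The calls depended on single libraries. With each library left out, called genes ranged from 1521 to 5333 (3040 with all), mitochondrial protein genes from 1 to 7 (4), ribosomal RNA genes from 0 to 1 (0) and nuclear list genes from 20 to 99 (68). Without control replicates 1 and 3, a choice made after seeing the data, these were 1593, 1, 0 and 27, and mt:ATPase6 and mt:Cyt-b turned to 0.11 each. Without control replicate 2 and vostok replicate 3, also added, 8 protein genes and 1 ribosomal RNA gene were called lower and mt:srRNA was at -0.61. With 1 library left out mt:ATPase6 ranged from -0.22 to 0.044, mt:Cyt-b from -0.19 to 0.066 and mt:srRNA from -0.59 to 0.32. DESeq2 called 1 ribosomal RNA gene. Library totals without scaling factors left 41 nuclear list genes. Scaling to the summed mitochondrial protein counts moves all genes up by construction; it called 1 protein gene (mt:ND6, higher) and 7 nuclear list genes (higher), and it reversed mt:ATPase6 (0.36), mt:Cyt-b (0.38), mt:ND2 (0.095), mt:ND5 (0.037), mt:CoII (0.013), mt:CoIII (0.0059), mt:lrRNA (0.032), PNPase (0.057), RNaseZ (0.037), Lon (0.23), TyrRS-m (0.057), ND-51 (0.090), SdhD (0.16), RFeSP (0.21), COX4 (0.15), ATPsynCF6 (0.10) and Idh3a (0.15). limma voom put mt:srRNA at -0.071. Replicate numbers did not pair the libraries: the deviations of same-numbered libraries correlated at 0.18, 0.01, 0.04 and -0.05, and only control replicate 1 correlated best with its own number. With a replicate block 1564 genes were called, of them 3 mitochondrial protein genes (mt:CoII lost) and 14 nuclear list genes, and mt:srRNA was at -0.086. The summed protein level kept its direction under all alternatives run for it, at log2 ratios of -0.55 to -0.35 with other scalings or filters or 1 library left out and of -0.24 and -0.63 in the added fits without 2 libraries. The summed ribosomal RNA level did likewise (-0.49 to -0.28, then -0.21 and -0.56). Other causes were not tested.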
